A study of Mus musculus with 8 samples.

Results

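The complement genes of the mouse glomerulus are described here across 8 mice, as 9 components and regulators chosen by name: *C1qa*, *C1qb* and *C1s* of the first complex, *C2*, *C4b* and *C3* of the convertases, *Cfd* of the alternative pathway, and the regulators *Cfi* and *Serping1*. They are read by 10 of the 25697 probes of the array, 1 probe per gene and 2 for *C1s*, among 18120 gene symbols. Glomeruli came from males of the FVB/N strain, 3 weeks old, 4 with both alleles of the tetraspanin gene *Cd151* (*Cd151*+/+) and 4 with a homozygous deletion of it (*Cd151*-/-), and all mice shared strain, sex and age and had no treatment that the labels name. Each mouse gave 1 Illumina MouseRef-8 v1.1 array. The deletion is present in every cell of the animal from conception, and glomeruli were collected from whole kidneys with magnetic beads that lodge in their capillaries, so that fragments of tubule can come along.

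Complement is a cascade of plasma proteases. The classical pathway starts when C1q binds antibody or damaged surfaces and C1s cuts C4 and C2, while the alternative pathway uses factor D, the product of *Cfd*, to activate factor B, and both meet at C3, whose cleavage marks surfaces and starts the terminal, membrane-attacking steps. C1 inhibitor, the product of *Serping1*, stops C1s, and factor I, the product of *Cfi*, cuts the active fragments of C3 and C4. Most circulating complement is made by the liver, C1q is made mainly by macrophages, factor D mainly by fat cells, and kidney tubule cells are a known local source of C3.

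Levels are given as normalised log2 signal, in which 1 unit is a doubling. The array background was removed and the arrays were brought to a common distribution, and a probe was called detected on an array when at most 5% of the negative-control probes were as bright (detection p-value of 0.05 or lower). A value near 4.6 on this scale is background. Of the 9 genes, 4 were detected on all 8 arrays (*C2*, *C3*, *C4b* and *Serping1*), *Cfi* was detected on 7, *C1s* on 4, *Cfd* on 3, *C1qa* on 2 and *C1qb* on none. *C1qb* was therefore not tested, which leaves 8 genes with a test. The 3 *Cd151* probes were detected in every *Cd151*+/+ mouse and in no *Cd151*-/- mouse, as the labels require. Array background was lower for *Cd151*+/+ mice 1 and 2 together with *Cd151*-/- mice 3 and 4 (59.0 to 69.5 on the deposited scale) than for the other 4 animals (123 to 135), a split that crosses genotype, and differences are also given within each set of 4. The isolates carried podocyte RNA (*Podxl*, which encodes podocalyxin, at 12.01 ± 0.30 in *Cd151*+/+ and 11.70 ± 0.39 in *Cd151*-/- mice, SD, n = 4 each) and also proximal tubule RNA in every mouse.

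*C3* was the gene of the 9 with the clearest difference between the genotypes, higher in *Cd151*-/- glomeruli by 1.47 on the log2 scale, a 2.77-fold difference. *Cfd*, *C2* and *C4b* were also higher on average, by 1.58, 1.03 and 0.80, but did not pass an unadjusted p of 0.05. *Serping1*, *C1s* and *C1qa* differed by -0.25, -0.37 and -0.0025. At an unadjusted p of 0.05 in limma, a linear model fitted over all tested probes, 1 of the 8 genes was higher (*C3*) and 0 were lower, where 1.69% of the 14967 tested probes were higher and 2.61% lower. After Benjamini-Hochberg adjustment over all tested probes 0 of the 8 passed in limma, with adjusted p from 0.918 to 0.999, where 0.0334% of all probes passed, and SAM, run over all 70 relabelings of the mice, called 0 as well, where it called 0.461% of all tested probes (6 higher and 63 lower) at a false discovery rate of 0.17. The median difference of the 8 genes was 0.58, beside -0.0073 over all tested probes, and 5 of the 8 differences were positive, where 49.1% were over all tested probes. In none of the 8 did the genotypes separate, where the groups did not overlap for 0.855% of all probes in the higher direction and 1.46% in the lower.

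**Figure D1:**
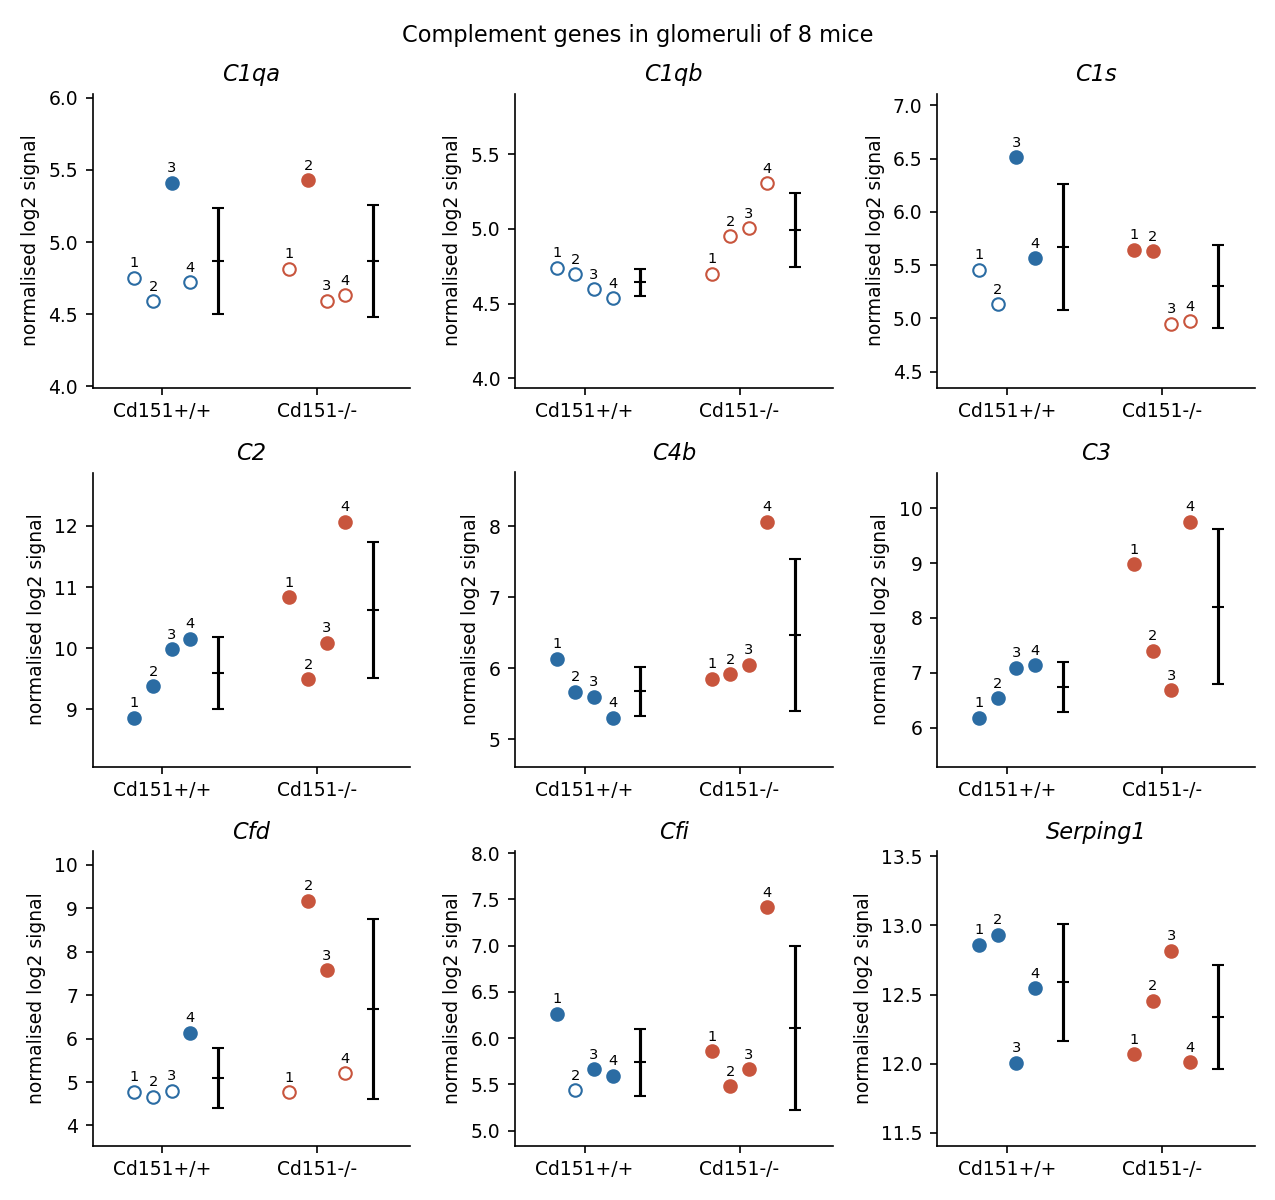
Normalised log2 signal (vertical axis, 1 scale per panel) of the 9 complement genes in each of 4 *Cd151*+/+ (blue) and 4 *Cd151*-/- mice (red), numbered as in the labels. Filled points were detected on that array and open points were not, and the bar to the right of each group is the mean with 1 SD. In *C2*, *C3*, *C4b* and *Cfi* the highest value is *Cd151*-/- mouse 4, whereas in *Cfd* it is *Cd151*-/- mouse 2, and in every panel the groups overlap.

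The C1 genes lay at or near background. For *C1qa*, which encodes a chain of the C1q recognition molecule (ILMN_2776431), the signals were 4.75, 4.59, 5.41 and 4.72 in *Cd151*+/+ mice 1 to 4 and 4.82, 5.43, 4.60 and 4.63 in *Cd151*-/- mice 1 to 4. One mouse of each genotype rose above background, *Cd151*+/+ mouse 3 and *Cd151*-/- mouse 2, and the others were not detected. The difference of -0.0025 had a standard error of 0.27 and a 95% interval from -0.59 to 0.59 (exact permutation p = 1.0).

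*C1qb*, the gene of another chain of the same molecule (ILMN_2619620), was at 4.64 ± 0.09 in *Cd151*+/+ and 4.99 ± 0.25 in *Cd151*-/- mice (SD, n = 4), with detection p-values from 0.0752 to 0.817, so that no array separated it from the negative controls. The gene of the remaining chain, *C1qc*, listed on the array as *C1qg*, was likewise detected on no array. The macrophage and leukocyte markers gave a mixed reading beside these genes. Of 14 such genes with a probe, 4 were detected on no array, among them *Ptprc*, which encodes the pan-leukocyte protein CD45, and *Adgre1*, the gene of the macrophage protein F4/80. The other 10 included *Laptm5*, *Cd14* and *Mrc1*, which were detected on all arrays. The sum of their normalised signals was 3392 to 5607 in *Cd151*+/+ mice and 2922 to 4930 in *Cd151*-/- mice. In limma 0 of the 10 passed an unadjusted p of 0.05, where 1.69% of all tested probes were higher and 2.61% lower. Their median difference was 0.017. In 1 of them, *Coro1a*, every *Cd151*-/- mouse lay below every *Cd151*+/+ mouse, where 1.46% of all tested probes did so.

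*C1s*, the protease that C1q sets in motion, had 2 probes. The brighter, ILMN_1257046, read 5.46, 5.13, 6.51 and 5.57 in *Cd151*+/+ mice 1 to 4 and 5.65, 5.63, 4.95 and 4.98 in *Cd151*-/- mice. It was detected on 2 arrays of each genotype, and these 4 were exactly the arrays of the higher background. The difference was -0.37 (standard error 0.32, exact permutation p = 0.429, limma adjusted p = 0.918), with -0.33 on the arrays of the lower background and -0.40 on those of the higher. Without *Cd151*+/+ mouse 3 it was -0.085 and without *Cd151*+/+ mouse 2 it was -0.57. The dimmer probe, ILMN_2667269, went the same way by -0.19 (exact permutation p = 0.657) and was detected on 1 array of each genotype. RefSeq lists the gene as *C1s1*, and a copy of it, *C1s2*, was not found under its name on the array, so a share of this signal from the copy cannot be told apart.

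*C2*, whose product is the protease part of the classical C3 convertase, was detected in every mouse (ILMN_2612895). It read 8.86, 9.38, 9.98 and 10.16 in *Cd151*+/+ mice 1 to 4 and 10.83, 9.49, 10.09 and 12.07 in *Cd151*-/- mice. *Cd151*-/- mice 1 and 4 stood above all *Cd151*+/+ mice, while *Cd151*-/- mice 2 and 3 lay within their range. The means were 9.59 ± 0.59 and 10.62 ± 1.11 (SD, n = 4), a difference of 1.03 (standard error 0.50, 95% interval -0.071 to 2.13, adjusted p = 0.918 from limma, unadjusted p = 0.0640). The exact permutation test gave p = 0.143, two-sided, where the smallest p that 4 mice against 4 allow is 0.0286. The difference was 1.96 on the arrays of the lower background and 0.097 on those of the higher. Without *Cd151*-/- mouse 4 it was 0.54 (limma adjusted p = 0.933). *Cfb*, the alternative pathway counterpart of *C2* and its direct neighbour on the chromosome in the RefSeq gene table, is listed as *H2-Bf* and was detected on no array.

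*C4b*, the gene of the non-protease part of the same convertase (ILMN_3049559), read 6.13, 5.67, 5.60 and 5.30 in *Cd151*+/+ mice 1 to 4 and 5.85, 5.91, 6.05 and 8.06 in *Cd151*-/- mice. Here 1 animal, *Cd151*-/- mouse 4, stood far above the other 7, which kept within 1 unit of each other. The difference of 0.80 (standard error 0.45, 95% interval -0.20 to 1.79, exact permutation p = 0.143, limma adjusted p = 0.918) was 0.27 without that mouse (limma adjusted p = 0.933). It was 1.16 on the arrays of the lower background and 0.43 on the rest. The array also carries the near-identical *C4a*, at 5.16 ± 0.34 in *Cd151*+/+ and 4.98 ± 0.38 in *Cd151*-/- mice (SD, n = 4). Cross-binding between these copies cannot be told apart from their own signal.

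*C3*, the protein on which all pathways converge (ILMN_2759484), read 6.18, 6.54, 7.09 and 7.14 in *Cd151*+/+ mice 1 to 4. In *Cd151*-/- mice 1 to 4 it read 8.98, 7.40, 6.68 and 9.76. In *Cd151*-/- animals 3 of the 4 were above every *Cd151*+/+ mouse, and mouse 3 lay within their range. The group means were 6.74 ± 0.46 and 8.20 ± 1.41 (SD, n = 4), and the spread in *Cd151*-/- mice was about as wide as the difference between the genotypes. The difference of 1.47 had a standard error of 0.58 and a 95% interval from 0.19 to 2.74 (limma unadjusted p = 0.0280, adjusted p = 0.918), and the exact permutation test gave p = 0.114. Of all tested probes 0.0668% were higher by at least as much. It was 1.86 on the arrays of the lower background and 1.08 on the rest. Over the 8 fits that each leave out 1 mouse the difference stayed between 0.95 and 1.98, with unadjusted p from 0.00244 to 0.0846. That p rose above 0.05 in 4 of these fits, to 0.0683 and 0.0553 without *Cd151*+/+ mouse 1 or 2 and to 0.0758 and 0.0846 without *Cd151*-/- mouse 1 or 4, and the difference was smallest without the last of these.

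Of the 9 genes, 4 have a promoter in the RefSeq table (*C1qb*, *C1s*, *Cfd* and *C3*), and the 250 bases before the annotated start are shown for *C3* and *Cfd*, the genes with the largest differences, in build GRCm38.p6. The window of *C3* is chr17:57228137-57228386 on the minus strand and that of *Cfd* is chr10:79890603-79890852 on the plus strand. Capitals mark a match to TTGCNNAA, a pattern used here for sites of the C/EBP factors, which drive acute-phase genes.
C3: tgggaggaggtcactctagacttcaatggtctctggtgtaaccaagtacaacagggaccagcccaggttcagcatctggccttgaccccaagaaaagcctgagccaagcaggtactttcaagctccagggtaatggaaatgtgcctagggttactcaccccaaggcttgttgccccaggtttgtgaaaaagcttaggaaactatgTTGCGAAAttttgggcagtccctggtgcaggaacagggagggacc
Cfd: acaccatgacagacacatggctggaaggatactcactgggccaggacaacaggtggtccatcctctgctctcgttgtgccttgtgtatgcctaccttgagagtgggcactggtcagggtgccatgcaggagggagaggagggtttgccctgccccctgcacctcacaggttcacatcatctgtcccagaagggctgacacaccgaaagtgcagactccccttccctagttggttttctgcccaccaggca
The match in *C3* begins 45 bases before the annotated start, and a further match lies on the other strand in a window of *C1s*, 242 bases before the start, so that 2 of the 4 genes hold one. On both strands of 32841 promoter windows of the same length, 9.57% hold TTGCNNAA. The interferon-linked motifs, a pair of GAAA runs with any 2 bases between them and TTCNNNGAA, found in 2.98% and 7.02% of all windows, and the NF-kappaB consensus, found in 7.25%, have no match in the windows of *C3* and *Cfd*. A match is a run of letters and was not tested as a site.

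*Cfd*, which encodes factor D (adipsin), showed the widest spread (ILMN_2835423). It was at background in *Cd151*+/+ mice 1 to 3 (4.78, 4.66 and 4.80) and detected in *Cd151*+/+ mouse 4 (6.14). In *Cd151*-/- mice it was detected in mouse 2 (9.18) and mouse 3 (7.58) and not in mouse 1 (4.76) or mouse 4 (5.20). On the deposited scale, before any correction, *Cd151*-/- mouse 2 read 1105 and mouse 1, on an array of similar background, 139. The mean difference was 1.58 (standard error 0.83, 95% interval -0.25 to 3.42, unadjusted p = 0.0837 and adjusted p = 0.918 in limma), and the exact permutation test gave p = 0.229. Without *Cd151*-/- mouse 2 it was 0.72, and without *Cd151*-/- mouse 1 it was 2.16 (limma adjusted p = 1.00). The 2 mice with the most *Cfd* were thus those with the least *C3* among the *Cd151*-/- animals. Of the adipocyte markers, 7 have a probe, and *Fabp4*, *Plin1*, *Cidec*, *Retn* and *Car3* were detected on no array. *Lep* and *Lpl*, the latter also made by other cells, were detected, with differences of -0.30 and 0.064. Their summed signal was 6295 to 8349 in *Cd151*+/+ and 6353 to 9288 in *Cd151*-/- mice.

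Among the regulators, *Cfi* (ILMN_2631704) read 6.26, 5.44, 5.67 and 5.59 in *Cd151*+/+ mice 1 to 4 and 5.86, 5.48, 5.66 and 7.42 in *Cd151*-/- mice. Only *Cd151*-/- mouse 4 stood above the *Cd151*+/+ mice. The difference was 0.37 (standard error 0.40, 95% interval -0.51 to 1.24, exact permutation p = 0.571), and it was -0.072 without that mouse.

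*Serping1*, the gene of C1 inhibitor (ILMN_2913166), was detected in every mouse, with an SD of 0.42 in *Cd151*+/+ and 0.38 in *Cd151*-/- mice. Its signals were 12.86, 12.93, 12.01 and 12.55 in *Cd151*+/+ mice 1 to 4 and 12.07, 12.45, 12.82 and 12.01 in *Cd151*-/- mice, and both groups covered nearly the same range. The difference was -0.25 (standard error 0.28, 95% interval -0.86 to 0.36, exact permutation p = 0.343), with -0.48 on the arrays of the lower background and -0.017 on those of the higher. It was -0.44 without *Cd151*+/+ mouse 3 and -0.41 without *Cd151*-/- mouse 3, and it lay between -0.16 and -0.13 without *Cd151*+/+ mouse 1 or 2 or *Cd151*-/- mouse 1 or 4. An interval of this width leaves room for a fall of up to 0.86 and a rise of up to 0.36.

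**Figure D2:**
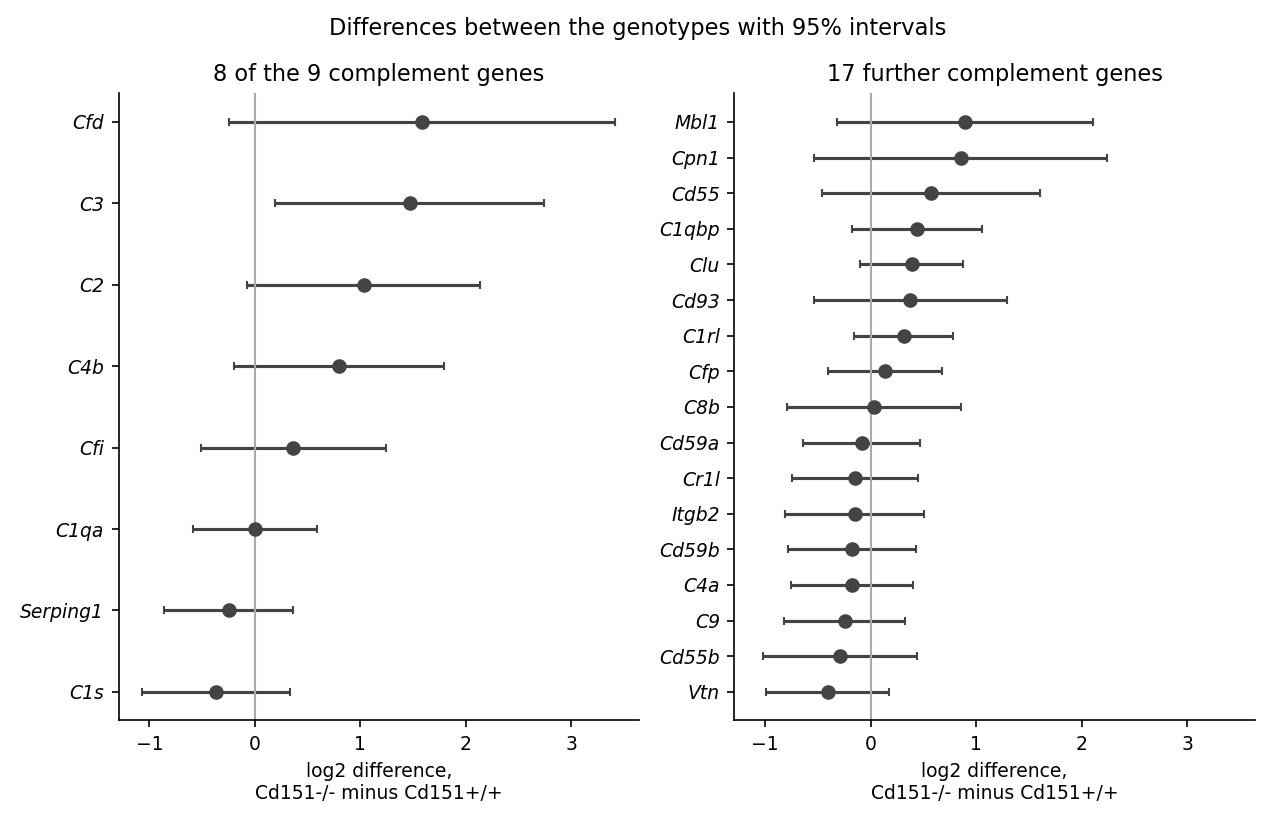
Log2 difference, *Cd151*-/- minus *Cd151*+/+ (horizontal axis), with its 95% interval from limma for the 8 complement genes tested (left) and for 17 of the 18 further complement genes tested (right), n = 4 mice per genotype. Of these intervals only that of *C3*, from 0.19 to 2.74, lies on one side of 0.

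The rest of the cascade was read from a list of 48 further complement genes, of which 40 have a probe and 18 were detected on at least 1 array. At an unadjusted p of 0.05 in limma 0 of the 18 were higher and 0 lower, where 1.69% of all tested probes were higher and 2.61% lower. After Benjamini-Hochberg adjustment in limma 0 of the 18 passed (lowest adjusted p 0.918). Their differences ran from -0.41 to 0.89 with a median of -0.022, and 9 were positive and 9 negative. With the array background sets as a block 2 were higher at an unadjusted p of 0.05, where 5.21% of all probes were. With limma's array weights 4 were higher and 1 lower at the same threshold, where 15.6% of all probes were higher and 16.6% lower. Of the initiators of the classical pathway beyond the named genes, *C1rl* was detected in all mice and differed by 0.31 (exact permutation p = 0.114). *Mbl1*, a mannose-binding lectin, was detected only in *Cd151*-/- mouse 4 (7.63, with the other 7 mice between 4.53 and 5.02), and the other 5 lectin pathway genes with a probe were detected on no array.

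Among the terminal components, which form the membrane attack complex, *C8b* was detected in all mice (6.20 ± 0.58 in *Cd151*+/+ and 6.24 ± 0.67 in *Cd151*-/-, SD, n = 4), while *Hc*, *C6* and *C8a* were detected on none. The receptors for the released fragments, *C3ar1*, *C5ar1* and *C5ar2*, were detected on no array either. Of 6 protectors of the cell surface with a probe, 3 were detected in all mice (*Cd59a*, *Cd59b* and *Cr1l*), *Cd55* in 4 and *Cd55b* in 3 of the 8, and *Cd46*, listed as *Mcp*, in none. *Cd59a*, whose product blocks the membrane attack complex, was at 14.56 ± 0.20 and 14.47 ± 0.43 (exact permutation p = 0.743), and *Cd59b* at 11.13 ± 0.25 and 10.95 ± 0.50 (p = 0.543). *Cr1l*, listed as *Crry*, the rodent inhibitor of C3 convertases, was at 8.52 ± 0.46 and 8.37 ± 0.31 (exact permutation p = 0.571), and its second probe went the same way by -0.24. *Cd55*, which dissociates convertases, was detected in 2 mice of each genotype. *Clu*, which encodes clusterin, a soluble inhibitor of the terminal complex, was at 10.80 ± 0.14 in *Cd151*+/+ and 11.18 ± 0.31 in *Cd151*-/- mice, a difference of 0.39 (exact permutation p = 0.0857). *Cfp*, the gene of properdin, which stabilises the alternative convertase, was at 8.57 ± 0.36 and 8.71 ± 0.26 (exact permutation p = 0.514).

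*C2* and *C3* moved together from mouse to mouse. Over the 8 mice Pearson's r was 0.92 (exact permutation p = 0.00213, adjusted 0.0128 over the 6 pairs of genes detected on all arrays) and Spearman's rho 0.83 (p = 0.0154, adjusted 0.0923), and r was 0.76 without the 2 mice whose *C2* lay farthest from the median. *C3* and *Serping1* went opposite ways, with r = -0.79 (exact permutation p = 0.0101, adjusted 0.0303) and rho = -0.74 (p = 0.0458, adjusted 0.138), and r = -0.71 without the 2 mice of most extreme *C3*. This sign depended on normalising the arrays, since r was -0.66 to -0.79 under 4 normalisations and 0.46 on the log2 of the deposited signals, where *C2* and *C3* had r = 0.96. *C2* with *C4b* had r = 0.70, which became 0.022 without *Cd151*-/- mouse 4 and *Cd151*+/+ mouse 1. Each array set and each genotype holds 4 mice, too few for a correlation of its own. After the means of genotype and array set were removed, r between *C2* and *C3* was 0.90.

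The genes most like each of the 4 genes detected throughout were sought among 7422 others detected on all arrays, by Pearson's r over the 8 mice and with no test. Those most like *C2* were *Pter* (r = 0.991), *Slc22a6* (0.990) and *Sectm1* (0.988), and *Slc22a6* is the organic anion transporter of the proximal tubule. It ranked the 8 mice exactly as *C2* did. *Slc22a6* is also among the proximal tubule markers below, so their relation with *C2* is not independent of this one. Those most like *C3* were *Ephx2* (0.985), *5730593N15Rik* (0.984) and *6230410P16Rik* (0.983). For *C4b* the genes were *2310016M24Rik* (0.971), *Gaa* (0.964) and *Agps* (0.957), and for *Serping1* *Tead2* (0.982), *Slc4a3* (0.981) and *Dpp4* (0.980).

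**Figure D3:**
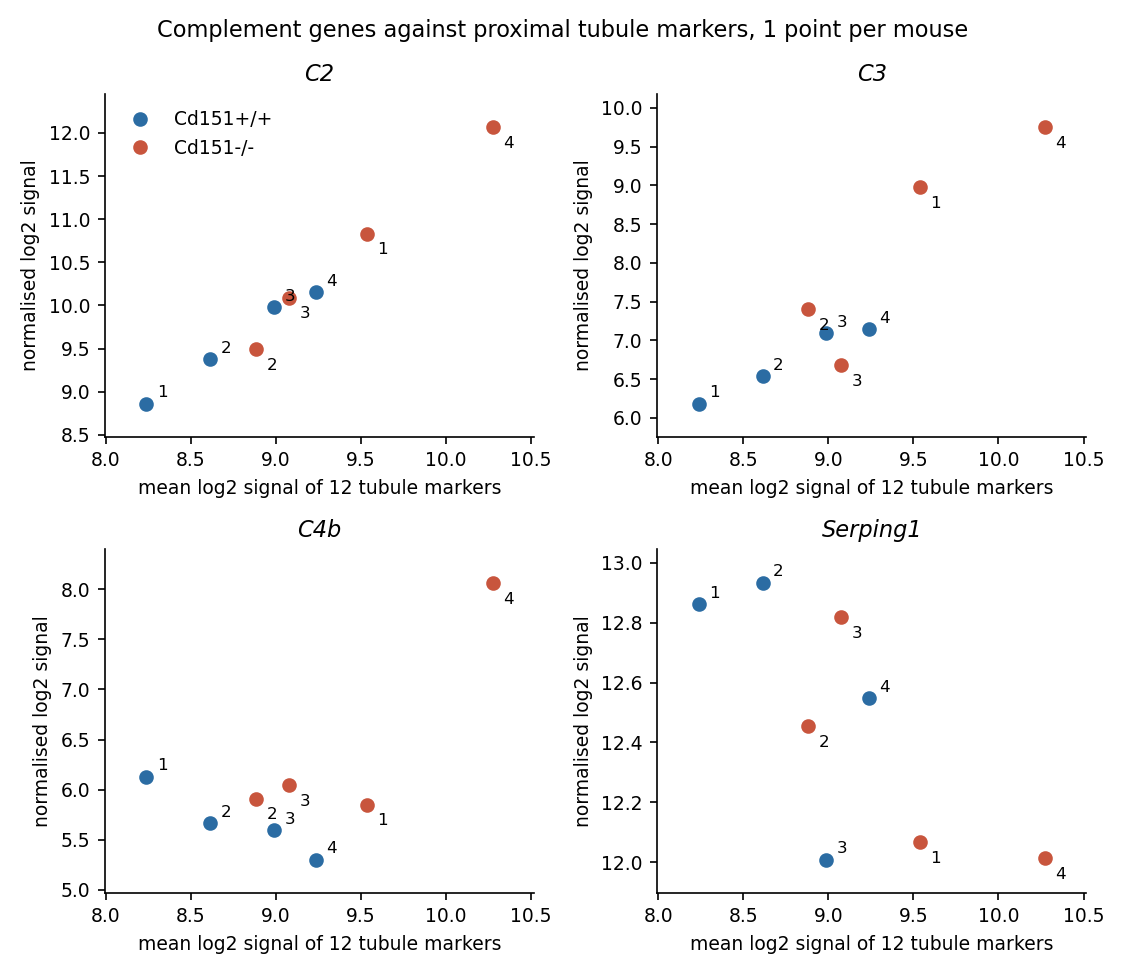
Normalised log2 signal of *C2*, *C3*, *C4b* and *Serping1* (vertical axes) against the mean normalised log2 signal of 12 proximal tubule markers (horizontal axes), 1 numbered point per mouse, *Cd151*+/+ in blue and *Cd151*-/- in red. *C2* lies close to a line through all 8 mice (r = 0.99), and *Cd151*-/- mouse 4 is at the far right of each panel.

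The proximal tubule markers varied in the same mice. All 12 with a probe were detected on at least 1 array. *Lrp2*, *Pck1* and *Gatm* passed this filter only through *Cd151*-/- mice, where they are higher, so their direction carries no weight. They are kept in the counts, sum and mean level below. Of the 12, 11 were higher on average in *Cd151*-/- isolates, where 49.1% of all tested probes were. Of them 2 were higher at an unadjusted p of 0.05 in limma, where 1.69% of all tested probes were. These were *Slc22a8* (by 1.45) and *Kap* (by 1.38), and none passed adjustment. The median difference of the 12 was 0.58. The sum of their normalised signals was 21630 to 55889 in *Cd151*+/+ mice and 34036 to 72456 in *Cd151*-/- mice, highest in *Cd151*-/- mouse 4 and next in *Cd151*-/- mouse 1. *C2* followed their mean log2 signal with r = 0.99 (exact permutation p = 2.48e-05, the smallest that 8 mice allow, adjusted 0.000794 over 32 relations of 4 genes with 8 lists) and rho = 1.00 (p = 4.96e-05, adjusted 0.00159), and r was 0.97 without the 2 mice of most extreme *C2*. *C3* followed it with r = 0.92 (exact permutation p = 0.000818, adjusted 0.0131) and rho = 0.83 (p = 0.0154, adjusted 0.164), and r = 0.74 without the 2 mice of most extreme *C3*. *C3* ran about as closely against the glomerular endothelial markers, with r = -0.91 (exact permutation p = 0.00131, adjusted 0.0140) and rho = -0.90 (p = 0.00456, adjusted 0.0730), and r = -0.84 without those mice. By r, these 3 relations of the 32 passed adjustment. Relations with other lists fell short of it. *C2* had r = -0.85 with the podocyte markers and -0.83 with the mesangial and smooth muscle markers, and *C3* had -0.82 with each. Their adjusted p was 0.0560 to 0.0594 by exact permutation. *C4b* had r = -0.90 with the podocyte markers (adjusted p = 0.0756, exact permutation). On the unnormalised signals each of these was positive. Without the 2 mice of most extreme *C3*, its r with the podocyte markers was 0.80. *C4b* had r = 0.65 with the tubule markers (adjusted p = 0.211 by exact permutation) and rho = 0.048, and r = -0.26 without 2 mice. *Serping1* ran against the tubule markers, with r = -0.72 (adjusted p = 0.0783, exact permutation). With the glomerular endothelial markers it had r = 0.89 (adjusted p = 0.0560, exact permutation), and 0.99 without the 2 mice of most extreme *Serping1*, though rho was 0.71 (adjusted p = 0.278). The relations of *C2* and *C3* with the tubule markers stayed positive on every scaling tried, at 0.96 to 0.99 and 0.86 to 0.95. On the log2 of the deposited signals, without normalisation, that of *C3* with the endothelial markers was 0.45 and that of *Serping1* with the tubule markers 0.62, both of opposite sign. In such bulk isolates more cells of a type and more RNA per cell cannot be told apart.

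With the tubule marker level of each mouse as a covariate in limma, a setting chosen after seeing the data, the difference between the genotypes was -0.073 for *C2*, 0.31 for *C3*, 0.29 for *C4b*, -0.13 for *Cfi* and 0.10 for *Serping1*. For *Cfd* it was 2.55, which passed an unadjusted p of 0.05, where 0.842% of all tested probes were higher and 0.802% lower. *Cfd* was detected in only 1 *Cd151*+/+ and 2 *Cd151*-/- mice, with the rest at background. The adjusted p of limma was 1.00 for each of these genes. The marker level and the genotype moved together in these mice, so the covariate takes up part of any difference they share, and the part of tubule RNA in the differences of *C2* and *C3* was not tested beyond this.

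**Figure D4:**
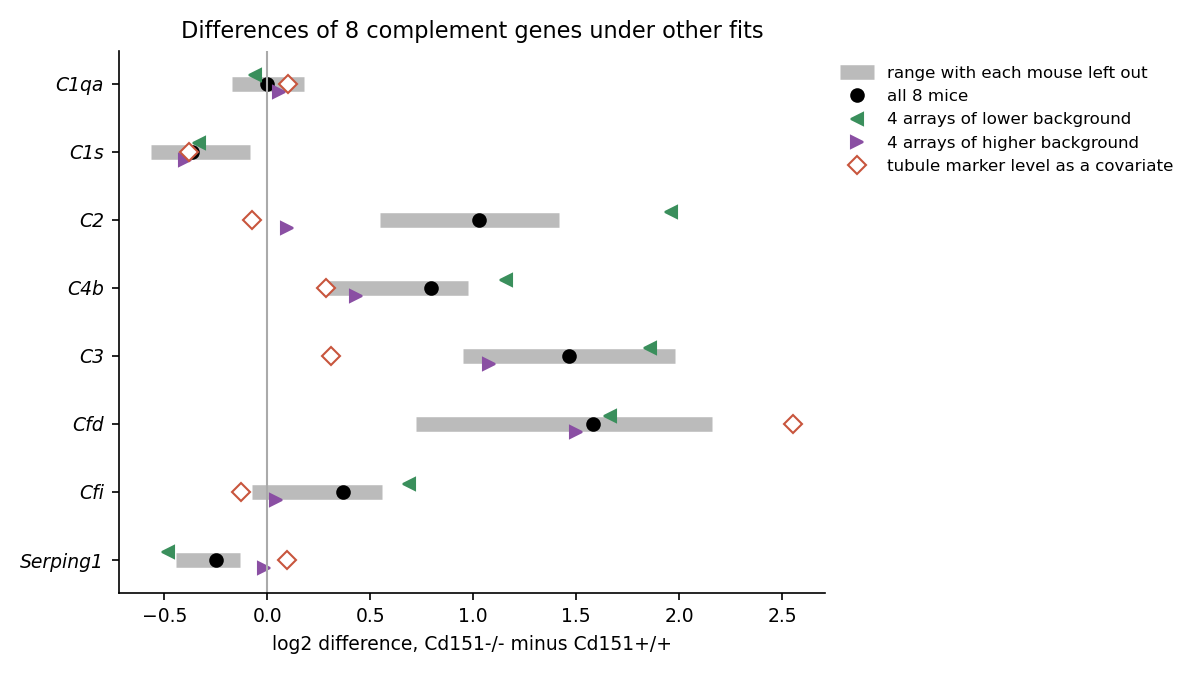
Log2 difference, *Cd151*-/- minus *Cd151*+/+ (horizontal axis), of the 8 tested complement genes in all 8 mice (black points), within the 4 arrays of lower (green) and of higher background (purple), and with the tubule marker level as a covariate (open diamonds). Grey bars span the values over fits that each leave out 1 mouse. *C2* ran from 1.96 on the arrays of lower background to 0.097 on those of higher background and to -0.073 with the covariate, while *Cfd* rose to 2.55 with it.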

How the data were processed

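Glomerular RNA of 4 *Cd151*+/+ and 4 *Cd151*-/- mice was measured, 1 mouse per array. The authors exported from GenomeStudio the signal intensity of each probe, the mean of its beads, which they deposited without background subtraction or normalisation. They deposited beside it a detection p-value, the share of negative-control probes at least as bright, whose steps correspond to 798 such probes. The study's own values were further cubic-spline normalised.

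Groups came from the sample titles. In R 4.3.3 with limma 3.58.1, backgrounds were inferred from the detection p-values, neqc was applied (offset 16, quantile), and genotypes were fitted with lmFit and eBayes over the 14967 probes detected on at least 1 array, with Benjamini-Hochberg adjustment. The named genes are the 9 complement genes, further complement genes by list, and the genes most like them. Of several probes the one with the highest mean stands for a gene, and older symbols were accepted. The procedure was tested on simulated data, in which limma recovered 81.0% of 200 probes changed by 1.5 among 14967, and 1.00% of those changed by 1. The simulated noise was independent between probes and arrays, equal in both genotypes and without background sets. These shares therefore need not hold for a gene such as *C3*, whose spread differed between the genotypes. Marker lists covered macrophages and leukocytes, proximal tubule, podocytes, endothelium, mesangium and smooth muscle, adipocytes, erythroid cells and interferon-inducible genes. The genes, lists and alternatives were chosen with earlier results of these data known. Median signals of 65.7 to 164 over backgrounds of 59.0 to 135 set the precision, as does the number of mice. Promoter windows came from RefSeq GRCm38.p6, where all 9 genes were matched by symbol or synonym. Some genes of the lists are counted in them but not reported here.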

Additional observations from a re-analysis of the deposited data

Results flagged for a closer look

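Among 18 sets of 4 mice, formed by the 9 tested probes and the 2 genotypes, 3 held 1 mouse far from the other 3, where chance gives about 1 in 20. *C4b* in *Cd151*-/- mouse 4 (8.06) stood apart by a gap of 0.911 of the whole range of its group. *Cfd* in *Cd151*+/+ mouse 4 (6.14), the only *Cd151*+/+ array to detect it, stood apart by 0.906 of the range. *C1s* at its dimmer probe, ILMN_2667269, in *Cd151*+/+ mouse 3 (5.86) stood apart by 0.891 of the range, and this array was also the only one of its genotype to detect *C1qa*. Each share is above the 95% critical value of Dixon's test for 4 values. The rate of 1 in 20 holds for independent sets of normally spread values, and these sets share mice. In the sets of *Cfd* and *C1s* the other 3 mice were not detected and lay close together at background, so the rate need not hold there. The share of such sets over all tested probes was not computed.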

How the results depend on the processing

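The count of complement genes past Benjamini-Hochberg adjustment was 0 under all alternatives tried, SAM included. The count higher at an unadjusted p of 0.05 was 1 over all mice, where 1.69% of all tested probes were higher. It was 2 with the mouse number as a block (1.37% of all probes higher) and with array weights (15.6%). It was 0 with an equal-variance test (1.52%), and 0 to 2 with each mouse left out (0.826% to 4.25%). *C3* itself lost its call with the equal-variance test (0.0956) and with no detection filter, where limma's unadjusted p was 0.0524 and the gene counted was *C1qb*, which no array detected (0.35). The count lower was 1 with array weights, where 16.6% of all probes were lower. Of the further complement genes 1 was higher without normexp (1.52% of all probes higher) and 1 with no detection filter (1.68%). With the background sets as a block 2 were higher (5.21%). With array weights 4 were higher and 1 lower (15.6% and 16.6%). With each mouse left out 0 to 1 were higher (0.826% to 4.25%). *C1qa* turned to 0.17 with array weights, to 0.18 without *Cd151*+/+ mouse 3, and to 0.013, 0.093 and 0.080 without *Cd151*-/- mouse 1, 3 or 4, and it ran from -0.17 to 0.18 with each mouse left out. *C1s* turned to 0.043 with array weights and *Cfi* to -0.072 without *Cd151*-/- mouse 4, with a range of -0.072 to 0.56. With the tubule marker level as a covariate, chosen after seeing the data, *C2* turned to -0.073, *Cfi* to -0.13, *C1qa* to 0.10 and *Serping1* to 0.10. The differences of *C2*, *C3*, *C4b* and *Cfd* kept their sign under the alternatives planned and with each mouse left out. The cause of these moves was not tested. Same-numbered mice did not deviate together (correlations -0.58, -0.40, -0.53 and -0.0086). The mice of each such pair lie in different background sets, so these values cannot tell whether the numbers pair the samples. The labels name no pairing. The replicate block gave *C2* a p of 0.0395 in limma. It moved the calls over all probes from 253 higher and 390 lower to 205 and 215, and is given only here. A probe at background carries no level, which limits *C1qa*, *C1qb*, *C1s* and *Cfd*.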

Other observations

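The interferon-inducible genes, of which 17 have a probe and 16 were tested, are described here beside the complement genes. In *Cd151*-/- against *Cd151*+/+ isolates 12 differences were negative and 4 positive, with a median of -0.20, where 49.1% of all tested probes were positive. In limma 0 were past an unadjusted p of 0.05 in either direction (lowest adjusted p 0.918). Over all tested probes 1.69% were higher and 2.61% lower at that threshold. *Isg15*, listed as *G1p2*, differed by -0.81 and *Cxcl10* by 1.08, with exact permutation p = 0.143 and 0.343.

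Of the other cell type lists, the podocyte markers had a median difference of -0.31 over 5 genes and the glomerular endothelial markers of -0.39 over 10. In both lists 0 were past an unadjusted p of 0.05 in limma, where 1.69% of all tested probes were higher and 2.61% lower. Among 6 mesangial and smooth muscle genes, with a median of -0.20, *Acta2* differed by 0.71 and *Pdgfrb* by -0.74 (exact permutation p = 0.0571 and 0.114). Among 4 erythroid genes, with a median of -0.63, *Alas2* differed by -2.57 and *Hba-a1* by -0.69 (exact permutation p = 0.0857 and 0.0571). These 4 genes were past an unadjusted p of 0.05 in limma, where 1.69% of all tested probes were higher and 2.61% lower. None of them passed Benjamini-Hochberg adjustment in limma (adjusted p = 0.918).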
